A study of Mus musculus with 12 samples.

Results

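The genes described here encode the regulators of the Perk arm of the unfolded protein response, the programme that cells start when misfolded protein collects in the endoplasmic reticulum. The 10 genes were taken by symbol, as every non-control probe of the Agilent mouse array annotated to Eif2ak3 (Perk), Atf4, Ddit3 (Chop), Atf3, Atf5, Trib3, Myd116 (Gadd34, now Ppp1r15a), Cebpb, Cebpg or Sesn2. All 10 were on the array, with 15 of its 41174 probes, against 27962 gene names in all. RNA came from microdissected hypertrophic zones of the tibial growth plate of 14 day old mice, with 1 tibia of 1 mouse on each of 12 single-colour arrays and 3 mice in each of 4 groups. Schmid mice carry the collagen X knock-in Col10a1 p.Asn617Lys and were homozygous according to the study's methods. Cog mice (ColXTgcog) carry a transgene for the misfolding cog form of thyroglobulin, driven by collagen X promoter sequence in hypertrophic chondrocytes, and the methods did not separate hemizygous from homozygous animals. Each mutant was compared with wild type littermates of its own background, Schmid background or Cog background. No agent was given to any group, and all RNA went through linear amplification before labelling with Cy3.

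In the textbook pathway, Perk is a kinase in the membrane of the endoplasmic reticulum that phosphorylates the translation initiation factor eIF2α, which lowers protein synthesis in general but favours translation of Atf4 mRNA. The transcription factor Atf4 then raises Chop, Atf3, Trib3 and genes for amino acid supply, Chop raises Gadd34, and Gadd34 brings a phosphatase to eIF2α so that synthesis resumes. Hypertrophic chondrocytes secrete large amounts of collagen X, which makes this tissue one where folding load is high. The array measures mRNA, so neither eIF2α phosphorylation nor Atf4 protein is seen here.

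For the member with the largest change, the member with the smallest change in Schmid, and the probe that went against its own gene, the 60 bases that each value was read from are given first, 5′ to 3′. On build mm7 of the file headers they lie at chr10:126796858-126797161 on the plus strand for Chop, chr15:80341130-80341189 on the plus strand for Atf4, and chr2:152079146-152079205 on the minus strand for the second Trib3 probe. The Chop probe covers 304 genomic bases with 60 letters, so it is read across a junction of the spliced mRNA.
Ddit3 probe A_52_P533146: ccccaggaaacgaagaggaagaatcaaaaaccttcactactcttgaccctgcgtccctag
Atf4 probe A_52_P139727: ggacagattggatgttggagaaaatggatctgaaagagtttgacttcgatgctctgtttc
Trib3 probe A_52_P600274: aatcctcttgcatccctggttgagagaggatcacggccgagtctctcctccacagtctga

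The promoters of Chop, Atf3 and Gadd34 are printed as examples of members that moved together, as shown further on, and each holds a motif match. Trib3 and Cebpb moved about as closely with Chop and are not printed, and Cebpb had no match. The 250 bases before the RefSeq gene start (build GRCm38.p6) are chr10:127290543-127290792 on the plus strand for Ddit3, chr1:191183334-191183583 on the minus strand for Atf3, and chr7:45526269-45526518 on the minus strand for Myd116. Capitals mark an AP-1 match (TGANTCA) in Ddit3, a C/EBP-ATF composite match (CARE, TGATGNAAN, on the opposite strand) in Atf3, and a cAMP response element (CRE, TGACGTCA) in Myd116.
Ddit3 promoter: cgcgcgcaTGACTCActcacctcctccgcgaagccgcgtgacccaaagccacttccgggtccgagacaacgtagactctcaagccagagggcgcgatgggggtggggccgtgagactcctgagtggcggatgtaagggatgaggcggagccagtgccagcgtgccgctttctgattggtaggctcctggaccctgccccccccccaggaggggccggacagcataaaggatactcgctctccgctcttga
Atf3 promoter: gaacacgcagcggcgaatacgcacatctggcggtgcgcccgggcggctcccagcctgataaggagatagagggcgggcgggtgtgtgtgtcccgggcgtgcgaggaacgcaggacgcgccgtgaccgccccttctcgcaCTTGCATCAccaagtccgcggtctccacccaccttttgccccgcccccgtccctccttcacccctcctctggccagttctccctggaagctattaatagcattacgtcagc
Myd116 promoter: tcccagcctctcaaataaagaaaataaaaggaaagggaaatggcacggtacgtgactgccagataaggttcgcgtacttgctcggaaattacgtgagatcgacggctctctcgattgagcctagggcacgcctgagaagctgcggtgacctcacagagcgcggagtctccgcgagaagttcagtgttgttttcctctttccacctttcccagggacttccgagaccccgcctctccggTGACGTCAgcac
Windows from 250 bases before to 50 after the start were searched on both strands for all 10 members, which had 11 such windows. CARE was found in 2 members, Atf3 at -111 to -103 and Trib3 at 13 to 21 past the start, against 3.95% of 32851 windows in the table. The CRE was found in 1 member, Myd116, at -12 to -5, against 1.79% of windows. AP-1 was found in 2 members, Ddit3 at -242 to -236 and Eif2ak3 at -185 to -179, against 7.81% of windows. The endoplasmic reticulum stress elements, ERSE and ERSE-II, were found in 0 members, against 0.119% and 0.0365% of windows. These are matches of letters, and binding was not measured.

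Between 39.6% and 61.8% of spots were well above background on an array, and the median raw signal of the negative control spots ran from 201.9 to 1894.5. The median SD of a probe within a group was 0.19 in Schmid and 0.39 in its wildtype on the log2 scale. The 6 hypertrophic and 6 chondrocyte markers fixed for the tissue (among them Col10a1, Ihh, Sox9 and Col2a1) were well above background on all 12 arrays. Thyroglobulin, the product of the transgene, read 17.79 to 17.95 in Cog and 9.55 to 10.22 in the other groups at 1 of its probes. All Schmid arrays were on 1 slide, Cog's wildtype arrays on another, and a further slide held all Cog arrays with 1 wildtype array of the Schmid background. Slide and genotype therefore cannot be told apart.

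In Schmid, 7 of the 10 regulators were higher than in wildtype by limma at an adjusted p of at most 0.05 and at least 2-fold, and 0 were lower. Of all gene names on the array, 5.80% were called higher and 5.75% lower. The 7 were Chop, Atf3, Trib3, Gadd34, Cebpb, Cebpg and Perk. The median log2 fold change of the 10 was 1.85 (1.77 with Gadd34 at its bound, given with its values), against -0.09 over all gene names. In Cog, 5 of the 10 were higher and 0 lower (Chop, Atf3, Trib3, Gadd34 and Cebpb), where 1.89% of all gene names were called higher and 0.837% lower. The median of the 10 in Cog was 1.58 (1.54 with that bound), against 0 over all gene names. All 3 mutant arrays lay above all 3 wildtype arrays for 8 of the 10 in Schmid and 7 of the 10 in Cog, which held for 18.7% and 17.2% of all gene names.

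**Figure D1:**
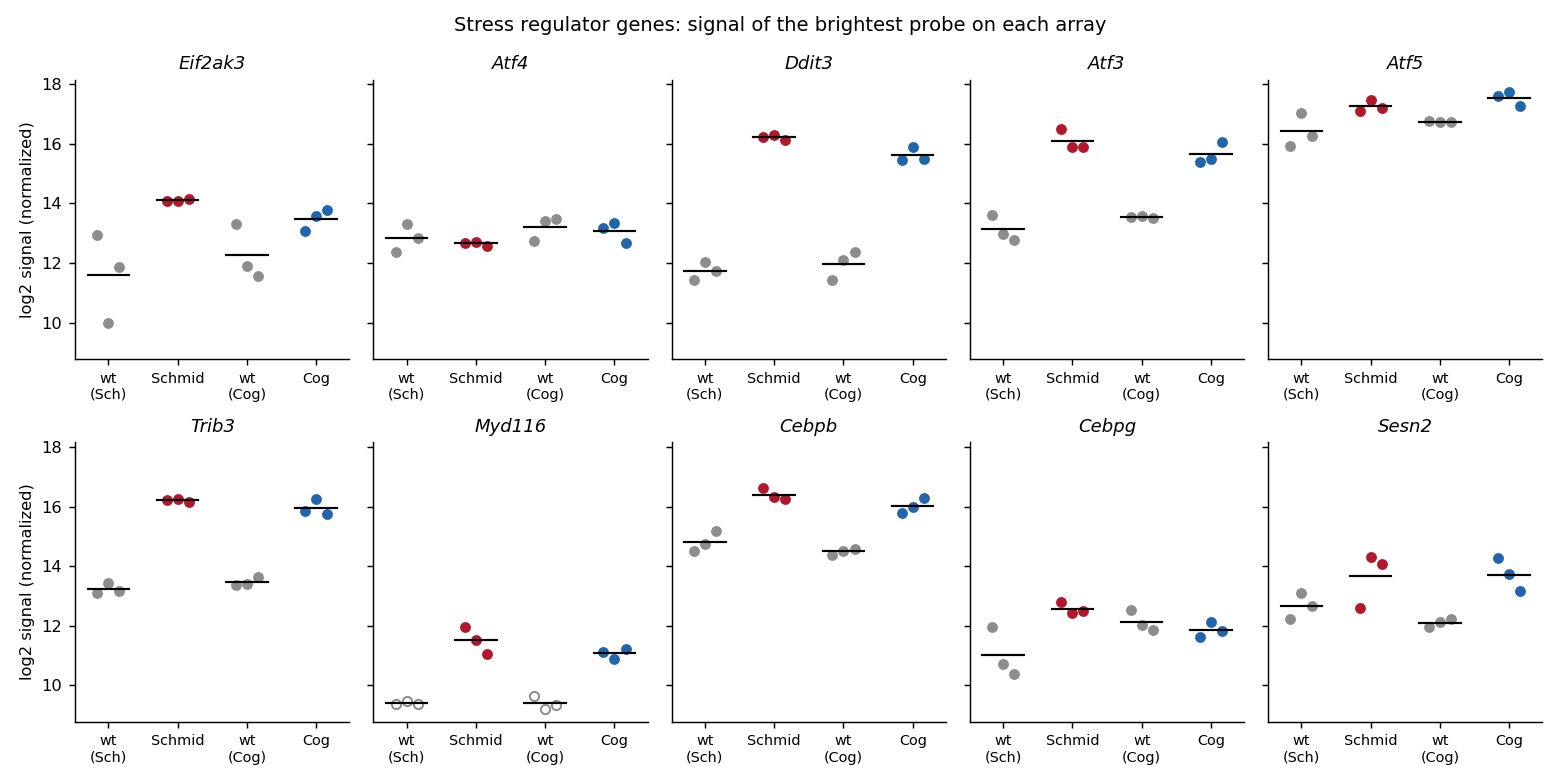
Normalized log2 signal of the brightest probe of each of the 10 regulators (vertical axis) on each of the 12 arrays, in wildtype of the Schmid background, wt (Sch), Schmid, wildtype of the Cog background, wt (Cog), and Cog. Points are single mice in the order of their replicate numbers, bars are means of 3, and open points are not well above background. Chop, Atf3, Trib3, Gadd34 (Myd116) and Cebpb are separated from wildtype in both mutants, Atf4 in neither. Heights cannot be compared between genes, since probes differ in brightness.

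At the head of the arm, Perk (Eif2ak3) read 14.08, 14.09 and 14.16 on the Schmid arrays and 12.95, 10.00 and 11.87 in their wildtype, as normalized log2 signal in the order of replicate numbers. The Schmid values were tight and all above wildtype, where the SD over the 3 mice was 1.49. The increase was 5.67-fold (log2 2.50 ± 0.65, SE, limma adjusted p = 0.021). It rested on a narrow margin: the adjusted p was between 0.051 and 0.059 without any one of the 3 Schmid arrays or without wildtype array 2, and 0.054 when the 6 arrays were fitted alone. Without wildtype array 2, the lowest, the fold change was 3.25, and without wildtype array 1, the highest, it was 9.02 (adjusted p = 0.0041). The scanner's processed signal gave 8.75-fold at the 75th percentile and 8.53-fold with quantile normalization.

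In Cog, Perk read 13.08, 13.57 and 13.77, against 13.32, 11.91 and 11.56 in wildtype. These groups overlapped, because wildtype array 1 lay above Cog array 1, and the 2.31-fold increase did not pass the test (adjusted p = 0.32). The difference between the mutant effects was log2 1.30, with a 95% interval of -0.75 to 3.34 (adjusted p = 0.36), so a larger increase of Perk in Schmid was not established.

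Atf4, the transcription factor translated when eIF2α is phosphorylated, showed no change that passed the test. Its signal was 12.68, 12.71 and 12.58 in Schmid and 12.38, 13.30 and 12.85 in wildtype. In Cog it was 13.18, 13.35 and 12.66, against 12.74, 13.41 and 13.47. Mutant and wildtype overlapped in both backgrounds. The log2 fold change was -0.19 in Schmid (95% interval -0.79 to 0.41, adjusted p = 0.63) and -0.15 in Cog (-0.74 to 0.45, adjusted p = 0.80). The intervals exclude a 2-fold change in either direction. The sign of the Schmid value turned under 3 other scalings, where it was between 0.01 and 0.11.

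Atf5, an Atf4 relative whose mRNA is also subject to translational control, was higher by less than 2-fold. It read 17.11, 17.47 and 17.21 in Schmid and 15.93, 17.05 and 16.28 in wildtype, a 1.79-fold difference (adjusted p = 0.034). In Cog it read 17.62, 17.73 and 17.26, against 16.76, 16.73 and 16.73, a 1.74-fold difference (adjusted p = 0.097). All mutant arrays lay above their wildtype in both backgrounds, but neither difference passed both criteria. Without wildtype array 2 of the Schmid background the Schmid increase was 2.23-fold and passed (adjusted p = 0.0042), and in Cog the quantile-normalized processed signal gave 2.08-fold (adjusted p = 0.041).

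Chop (Ddit3), the bZIP factor that links prolonged stress to cell death and to restored protein synthesis, had the largest increase of the 10 in both mutants. Its signal was 16.23, 16.31 and 16.12 in Schmid and 11.44, 12.03 and 11.72 in wildtype. In Cog it was 15.46, 15.88 and 15.51, against 11.44, 12.09 and 12.36. The mutant arrays stood more than 3 log2 units above every wildtype array. In Schmid this was a 22.5-fold increase (log2 4.49 ± 0.23, SE, adjusted p = 8.7e-06), and the Cog increase was 12.6-fold (log2 3.66 ± 0.23, SE, adjusted p = 8.5e-05). The Schmid increase exceeded that in Cog by log2 0.84 (95% interval 0.10 to 1.57), which did not pass after adjustment over all probes (adjusted p = 0.11). With array weights or slide as a random block the adjusted p was 0.045 or 0.04 at under 2-fold, and both criteria were met without wildtype array 1 of the Cog background (log2 1.10, adjusted p = 0.027).

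Atf3, an immediate stress-induced bZIP repressor, rose in both mutants. It read 16.49, 15.89 and 15.89 in Schmid and 13.62, 12.99 and 12.77 in wildtype. The Cog arrays read 15.40, 15.49 and 16.08, and the 3 wildtype arrays lay within 13.51 to 13.57. No mutant array came near a wildtype array. Schmid exceeded wildtype 7.82-fold (log2 2.97 ± 0.26, SE, adjusted p = 0.00012), Cog exceeded it 4.34-fold (log2 2.12 ± 0.26, SE, adjusted p = 0.0034), and their difference of log2 0.85 (0.05 to 1.65) did not pass (adjusted p = 0.13). Array weights or a random slide block gave adjusted p = 0.031 or 0.048, again under 2-fold, and the difference met both criteria without wildtype array 1 of the Schmid background (log2 1.10, adjusted p = 0.037).

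Trib3, the pseudokinase induced by Atf4 and Chop that in turn binds Atf4, rose in both mutants at its brighter probe. It read 16.21, 16.25 and 16.16 in Schmid and 13.09, 13.44 and 13.17 in wildtype. In Cog it read 15.86, 16.27 and 15.76, against 13.38, 13.41 and 13.65. For Schmid this made a 7.83-fold increase (adjusted p = 7.9e-06), for Cog a 5.60-fold increase (adjusted p = 6.0e-05), and the difference of the effects was log2 0.48 (0.01 to 0.96, adjusted p = 0.15), which stayed under 2-fold where its adjusted p was lowest (log2 0.83, adjusted p = 0.038, row trend removed).

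The second Trib3 probe, whose bases are printed above, gave another picture. It read 11.40, 11.34 and 11.19 in Schmid and 10.73, 11.43 and 10.48 in wildtype, which overlapped (1.35-fold, adjusted p = 0.16). In Cog it read 11.05, 10.99 and 11.28, below the 11.79, 11.75 and 11.98 of wildtype by log2 0.73 (adjusted p = 0.079). All of these signals were well above background. The correlation between the 2 probes over the 12 arrays was -0.10, and the file annotates them to different accessions, NM_144554 and NM_175093. The Trib3 increase therefore stands at 1 probe of 2.

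**Figure D2:**
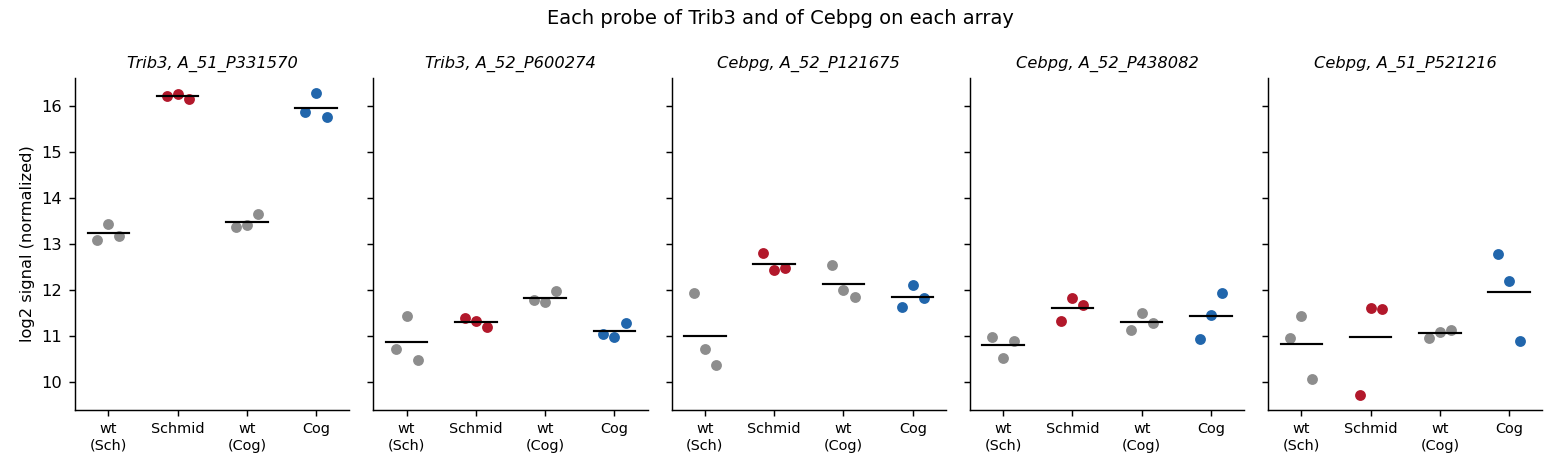
Normalized log2 signal (vertical axis) of both Trib3 probes and of the 3 Cebpg probes on each array, by group, with 1 point per mouse and bars at the mean of 3. The first Trib3 probe separates both mutants from wildtype, the second separates Cog in the opposite direction, and the 3 Cebpg probes do not share 1 pattern.

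Gadd34 (Myd116), the phosphatase subunit that reverses eIF2α phosphorylation, was well above background on mutant arrays only. It read 11.97, 11.51 and 11.05 in Schmid and 11.11, 10.88 and 11.21 in Cog, all well above background. On the 6 wildtype arrays it read 9.20 to 9.64, and 0 of these were well above background. The wildtype level is thus only bounded, taking for each array the higher of the probe's own signal and the lowest signal of any probe well above background. With that bound in place of the wildtype level, the mean Schmid signal was at least 3.89-fold that of wildtype, and for Cog at least 2.91-fold. The bound concerns the detection limit alone and carries no test or sampling error. The fitted contrasts had a limma adjusted p of 0.00025 in Schmid and 0.0045 in Cog. The fitted fold is no bound and was 4.3 in Schmid. It moved with the setting, from 3.66 without Schmid array 1 to 16.6 with the processed signal at the 75th percentile.

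Among the C/EBP factors, which dimerize with Chop and with Atf4, Cebpb rose in both mutants. Its brighter probe read 16.63, 16.33 and 16.26 in Schmid and 14.52, 14.76 and 15.19 in wildtype. In Cog the 3 mice lay between 15.77 and 16.30, against 14.38, 14.52 and 14.59. The groups did not overlap in either background. Schmid thus gained 3.0-fold (adjusted p = 0.00054), Cog gained 2.89-fold (adjusted p = 0.0043), and the effects differed by log2 0.06 (-0.55 to 0.66). The Cog call was lost under scaling of the scanner's processed signal to the 75th percentile (2.28-fold, adjusted p = 0.15). The dimmer Cebpb probe gave a Schmid value of 1.97-fold (adjusted p = 0.0033) beside a Cog value of 1.29-fold (adjusted p = 0.25), with neither past both criteria, and correlated with the brighter one at 0.82 over the 12 arrays.

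Cebpg, a C/EBP without an activation domain of its own, was the 1 member whose brightest probe differed between the mutant effects. That probe read 12.80, 12.43 and 12.49 in Schmid and 11.94, 10.72 and 10.37 in wildtype, a 2.96-fold increase (adjusted p = 0.011). Cog arrays gave 11.63, 12.11 and 11.83, against 12.54, 12.01 and 11.85, log2 -0.27 (adjusted p = 0.70). The Schmid effect exceeded the Cog effect by log2 1.84 (0.73 to 2.95, adjusted p = 0.032), where 11.4% of all gene names were called either way. The processed signal gave larger values, 5.51-fold and 5.20-fold in Schmid and 7.43-fold and 6.73-fold in place of 3.58-fold for the difference (75th percentile and quantile). The call of the difference was lost on leaving out any one of 9 of the 12 arrays (adjusted p up to 0.077), all but wildtype array 1 of the Schmid background, Cog array 2 and wildtype array 3 of the Cog background. The wildtype levels of the backgrounds were themselves log2 1.12 apart at this probe, lower in the Schmid background (adjusted p = 0.17).

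The other Cebpg probes did not repeat this difference. The second read 11.34, 11.83 and 11.67 in Schmid, above the 10.99, 10.53 and 10.89 of wildtype by 1.75-fold (adjusted p = 0.037), with a difference of effects of log2 0.67 (adjusted p = 0.21). The third gave 1.12-fold in Schmid (adjusted p = 0.86), 1.86-fold in Cog (adjusted p = 0.42) and a difference of effects of log2 -0.73 (adjusted p = 0.57). Correlations of the brightest probe with the others over the 12 arrays were 0.62 and 0.03.

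Sesn2, a sestrin that restrains mTORC1 and is a target of Atf4, was variable. It read 12.60, 14.30 and 14.06 in Schmid and 12.21, 13.10 and 12.66 in wildtype, where Schmid array 1 fell within the wildtype range (2.00-fold, adjusted p = 0.11). Without Schmid array 1 the increase was 2.88-fold and passed (adjusted p = 0.015), as it did with array weights and with a common 75th percentile (2.35-fold and 2.31-fold). Cog mice had 14.26, 13.73 and 13.16, all above the 11.96, 12.11 and 12.22 of wildtype, a 3.07-fold difference that did not pass (adjusted p = 0.062). Under 4 alternatives it passed the threshold, with folds from 3.07 to 4.20. At the second probe Schmid stood at 1.72-fold (adjusted p = 0.099) while Cog stood at 1.2-fold (adjusted p = 0.69).

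**Figure D3:**
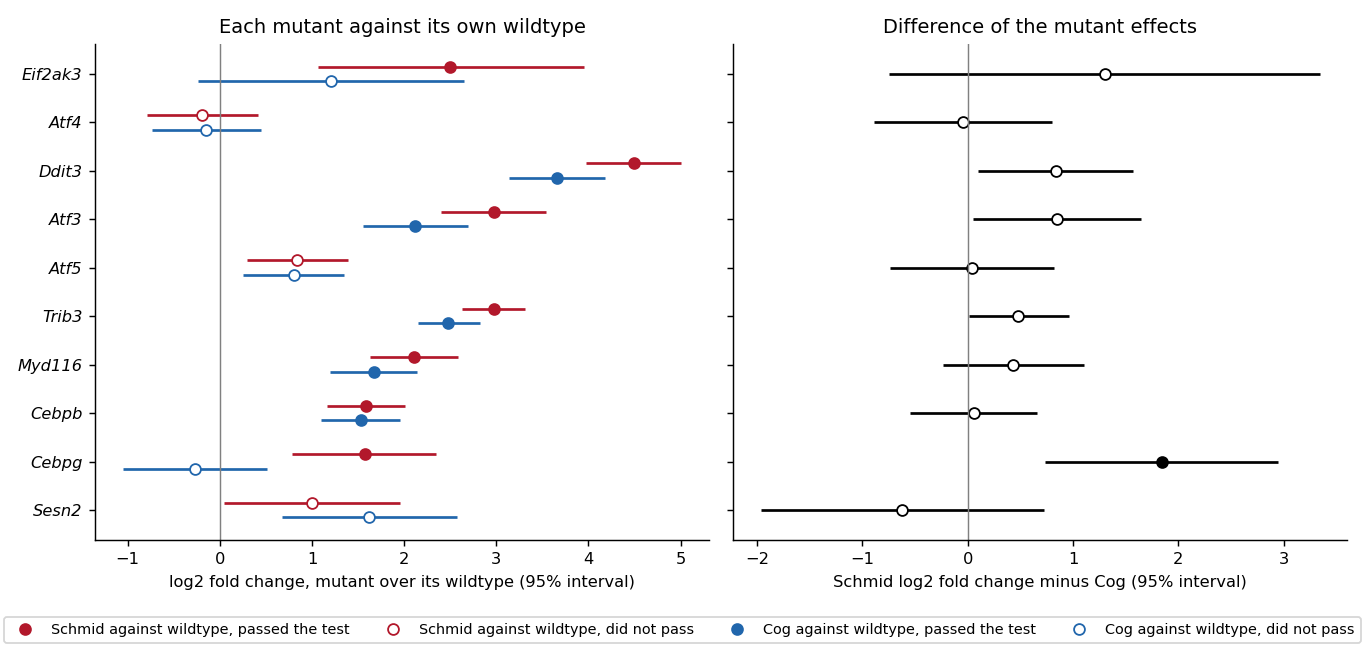
Left, log2 fold change of each regulator's brightest probe, mutant over its own wildtype, with 95% intervals from limma (3 mice a group). Right, the Schmid log2 fold change minus that of Cog. Filled points passed adjusted p of at most 0.05 and at least 2-fold. Chop leads in both mutants at 4.49 and 3.66, Atf4 lies at 0 within its interval, and only Cebpg is filled on the right. The values of Myd116 are fitted values, since its wildtype level is only bounded.

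Of the 10 members, 1 passed the test of the difference between the mutant effects (Cebpg), with the larger effect in Schmid. The share of members called was close to the 11.4% of all gene names. At the brightest probe the 95% interval of the difference stayed within 2-fold for Atf4, Atf5, Trib3 and Cebpb. It reached past 2-fold for the other members. At the second probe the interval reached past 2-fold for Trib3 (log2 0.50 to 1.83, limma adjusted p = 0.026, which passed). The same held for the second Cebpb probe (log2 0.07 to 1.15, limma adjusted p = 0.12, which did not pass). Between the wildtype groups of the 2 backgrounds 0 of the 10 were called by limma, where 0.554% of all gene names were called. At the brightest probe these groups did not overlap for 0 of the 10, against 18.7% of all gene names. At the second probe of Trib3 and of Cebpg they did not overlap, with the Schmid background lower. Slide 3 was the 1 slide with more than 1 group: on it the Cog mean exceeded the single wildtype array of the Schmid background by log2 3.90 for Chop, 2.89 for Atf3, 2.79 for Trib3, 1.60 for Perk, 1.49 for Cebpg, 1.26 for Atf5, 1.05 for Sesn2, 0.84 for Cebpb and 0.21 for Atf4, a comparison across backgrounds with no test. Gadd34 was not well above background on that wildtype array. For Cebpg this stood against log2 -0.27 between Cog and its own wildtype.

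The genes whose signal over the 12 arrays was most like that of Chop were taken from the 27952 ranked gene names outside the 10. They were Cpox, an enzyme of haem synthesis (Pearson r 0.980), Gdf15, a secreted stress cytokine (0.979), Tspan2, a tetraspanin (0.979), Steap1 (0.976) and Gm129 (0.973). The arrays fall into mutant and wildtype clusters, so these values describe the same separation and carry no p. Within the members, r with Chop was 0.96 for Atf3 and Gadd34, 0.95 for Cebpb, 0.81 for Atf5, 0.78 for Sesn2, 0.72 for Perk, 0.49 for Cebpg and -0.17 for Atf4. For Trib3 0 of the ranked genes had a higher r.

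Around the members, 4 lists of pathway genes were tested in the same fit. Of 8 genes for eIF2α, its kinases, phosphatase and feedback, 3 rose in Schmid and 0 fell, with a median log2 fold change of 0.52. They were Dnajc3 (3.79-fold), which encodes the Perk inhibitor p58IPK, Ppp1r15b (2.71-fold), the constitutive counterpart of Gadd34, and Eif2a (5.94-fold), an initiation factor distinct from the eIF2α subunit encoded by Eif2s1. In Cog 1 rose, Dnajc3 (5.16-fold, adjusted p = 0.0012), with a median of 0.38. Of all gene names, 5.80% were called higher in Schmid and 1.89% in Cog. The other kinases of eIF2α, Eif2ak1, Eif2ak2 and Eif2ak4, passed in neither mutant.

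Of 7 paralogs of the members on the array (8 were listed, and Cebpe was not matched), 0 rose and 1 fell in Schmid, Cebpd (log2 -1.17, adjusted p = 0.014), and 0 passed in Cog. Of all gene names, 5.75% were called lower in Schmid and 0.837% in Cog. Of 16 bZIP partners, 1 rose in each mutant and 0 fell, beside 5.80% (Schmid) and 1.89% (Cog) of all gene names called higher. In Schmid it was Jun, the AP-1 subunit (2.43-fold, adjusted p = 0.0072), and in Cog Nfe2l1, the activator of proteasome genes (2.14-fold, adjusted p = 0.0060). The medians were 0.22 and 0.26.

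Of 25 textbook targets of Atf4 and Chop, 19 rose and 1 fell in Schmid, with a median log2 fold change of 1.37. In Cog 8 rose and 0 fell, with a median of 0.69. Of all gene names, 5.80% were called higher and 5.75% lower in Schmid, and 1.89% and 0.837% in Cog. The list was drawn up with results of these arrays known, so its direction is no independent evidence. The largest increases in Schmid were Fgf21, a secreted metabolic hormone (68.5-fold, adjusted p = 3.1e-06), Car6 (59.3-fold, adjusted p = 1.3e-06), and Cth, which makes cysteine (10.2-fold, adjusted p = 0.0020). Car6 is a carbonic anhydrase gene that the paper names among the targets of Chop and Cebpb. The largest in Cog were Car6 (6.34-fold, adjusted p = 0.00051), the cystine transporter Slc7a11 (5.98-fold, adjusted p = 0.0022, with 1 of 3 wildtype arrays well above background) and Herpud1 of endoplasmic reticulum associated degradation (5.72-fold, adjusted p = 2.6e-05). The gene that fell in Schmid was Bcl2l11, which encodes the pro-apoptotic protein Bim (log2 -1.18, adjusted p = 0.0029).

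Further targets that rose in both mutants were Gdf15, Chac1, Phgdh, Slc3a2 and Wars. The death receptor gene Tnfrsf10b and Bbc3 (Puma), both named as Chop or stress death targets, passed in neither mutant (Bbc3 log2 -0.84, adjusted p = 0.082 in Schmid and 0.21, adjusted p = 0.76 in Cog). There were 4 targets that passed the test of the difference between effects, all larger in Schmid: Fgf21 (log2 5.82, adjusted p = 0.00012), Car6 (3.22, adjusted p = 0.00051), Psat1 (2.85, adjusted p = 0.030) and Ero1l (2.46, adjusted p = 0.0017). For that comparison 11.4% of all gene names were called either way. At its brightest probe Fgf21 did not pass in Cog (1.21-fold, limma adjusted p = 0.6). The paper, in contrast, lists Fgf21 among genes that its arrays found strongly raised in both mutants.

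**Figure D4:**
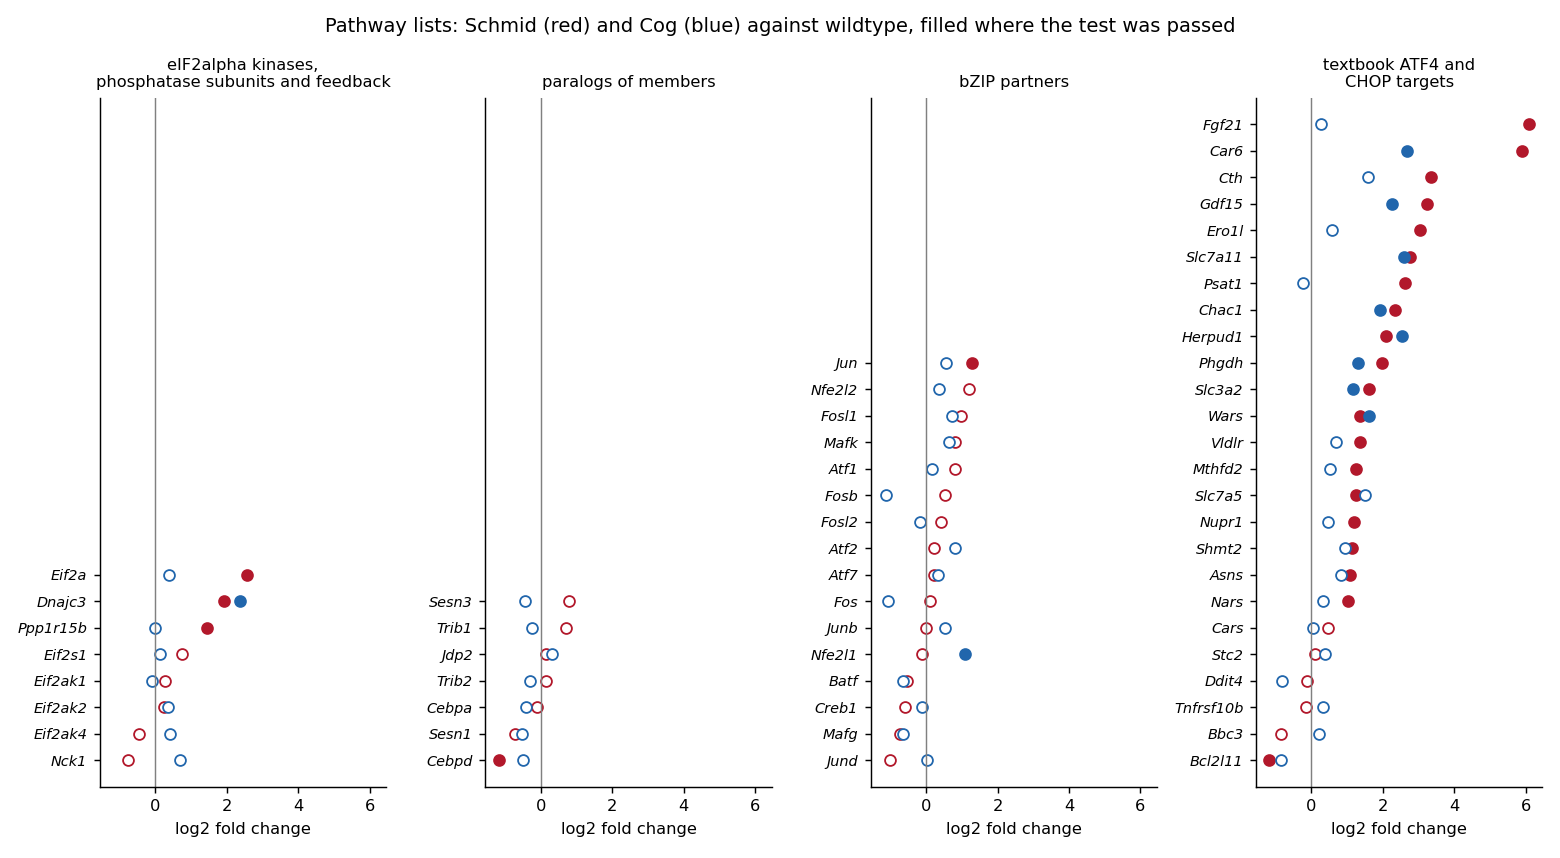
Log2 fold change (horizontal axis) of every gene of the 4 pathway lists on the array in Schmid (red) and Cog (blue) against wildtype, filled where adjusted p was at most 0.05 and the change at least 2-fold. In the list of Atf4 and Chop targets 19 genes are filled to the right in Schmid and 8 in Cog, while few genes of the other lists are filled. Of all gene names, 5.80% were called higher in Schmid and 1.89% in Cog.

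Markers of some other cells differed with genotype. As a background to the counts below, 5.75% of all gene names were called lower and 5.80% higher in Schmid. In Cog these shares were 0.837% and 1.89%. The summed level of 5 erythroid markers was 14.59 to 16.05 in Schmid and 17.94 to 19.91 in its wildtype on the log2 scale, and 3 of the 5 fell (Hbb-b1, Hba-a1 and Alas2). Of 5 endothelial markers 3 fell in Schmid, with summed levels of 12.32 to 12.87 against 14.16 to 14.92, while the defining marker Pecam1 was well above background on 0 arrays. Of 5 osteoclast and 5 osteoblast markers 1 each fell in Schmid, 0 of 5 marrow neutrophil markers passed, and of 4 keratinocyte markers 1 rose. The summed osteoclast level was also wholly lower in Schmid, at 13.03 to 13.52 against 14.06 to 15.46. The summed osteoblast, neutrophil and keratinocyte levels overlapped with wildtype. In Cog 0 of the erythroid, endothelial, osteoclast, osteoblast and neutrophil markers passed, and of the keratinocyte markers 1 fell. The summed levels in Cog nevertheless lay apart from its wildtype for the neutrophil markers, at 14.39 to 16.60 against 13.33 to 13.86, and for the endothelial markers, at 13.40 to 14.25 against 14.47 to 14.86. Of 6 hypertrophic markers 2 fell in Schmid (Ihh and Alpl) and 1 in Cog (Ihh). The 4 that did not pass in Schmid were Col10a1 (log2 -0.02), Spp1 (0.36), Panx3 (-0.95) and Mmp13 (-1.26). The 5 that did not pass in Cog were Col10a1 (log2 1), Alpl (0.89), Spp1 (-0.42), Mmp13 (-0.49) and Panx3 (-0.61). Of 6 chondrocyte markers 1 fell in Schmid (Matn1). Summed levels of both sets were wholly lower in Schmid than in its wildtype. They were 18.48 to 18.79 against 18.88 to 19.82 for hypertrophic and 20.2 to 20.35 against 20.51 to 20.79 for chondrocyte markers. The part of these marker changes in the results for the regulators was not tested. In such bulk tissue, fewer cells of a type and less RNA per cell cannot be told apart.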

How the data were processed

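The authors hybridized Cy3-labelled amplified RNA to Agilent whole mouse genome arrays and deposited, per array, the spot intensity values of Agilent Feature Extraction 9.5.3. They also deposited a table of log2 values after background correction and quantile normalization, used here as an alternative (lowest correlation of an array 0.99987). From the deposited intensity, the mean spot signal was corrected with normexp (offset 50) on the median local background, control spots and flagged outlier spots were removed (99.8% of spots stayed), arrays were quantile normalized and spots of a probe averaged. Group means over all 12 arrays were fitted with limma 3.58.1 (R 4.3.3, 8 residual degrees of freedom), and p-values were adjusted by Benjamini-Hochberg over all 41174 probes. A probe was called at an adjusted p of at most 0.05 and at least 2-fold. Each gene is represented by its probe of highest average brightness, and list and background counts use that probe.

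All 10 members were named, with every probe; from each pathway list the 3 called genes with the largest change per mutant are given with values, beside the 5 genes most like Ddit3. Genes outside that rule (Bbc3, Tnfrsf10b, Eif2ak1, Eif2ak2, Eif2ak4 and the list genes with a different effect) were chosen after their values were seen. The members, lists and markers were chosen with earlier results of these data known. The fit was tested on simulated data with 41141 probes. Of 100 probes raised by log2 1.5, 73.0% were called in the Schmid run and 62.0% in the Cog run. Of 100 raised by log2 3, 94.0% and 95.0% were called. Both runs used the same mean and pooled SD of each probe for all groups, so their percentages differ only by the random draw. The unequal spread of the groups was not simulated, and fewer probes were changed than genes were called in Schmid. The number of arrays limits the precision. Mice of 1 group are separate animals.

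Alternatives changed the background correction, offset, scaling, filter on dim probes, spot flags, arrays fitted, array weights, blocks, a trend over array rows and the probe rule, and left out each array. Replicate numbers were not taken as pairs: the labels tie no number to a litter or day, and over all probes the deviations of same-numbered mice correlated at 0.193, 0.171 and 0.066 for Schmid and its wildtype and at -0.116, 0.0716 and -0.106 for Cog. Over probes well above background on all arrays they were 0.307, 0.283 and 0.117 for Schmid and -0.208, 0.151 and -0.2 for Cog. On those probes Schmid mouse 3 correlated higher with wildtype mouse 2 (0.148) than with its own number. Same-numbered wildtype mice of the 2 different backgrounds correlated at 0.504, 0.116 and 0.274. Whether the numbers mark pairs in Schmid was therefore not settled, and the block changed no member's call.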

Additional observations from a re-analysis of the deposited data

Results flagged for a closer look

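The effect of Schmid and the effect of Cog differed by limma's test of the difference itself at 2 probes of the members, 1 of them the brightest of its gene, where 11.4% of all gene names were called at their brightest probe. The brightest Cebpg probe differed by log2 1.84, with group means of 12.58 in Schmid, 11.01 in its wildtype, 11.86 in Cog and 12.13 in its wildtype. The second Trib3 probe differed by log2 1.16 (95% interval 0.50 to 1.83, adjusted p = 0.026), while the brighter Trib3 probe differed by log2 0.48 without passing. Group means at the second Trib3 probe were 11.31 in Schmid, 10.88 in its wildtype, 11.10 in Cog and 11.84 in its wildtype. The wildtype groups did not overlap there (log2 -0.96, Schmid background against Cog background, limma adjusted p = 0.068).

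Among the pathway genes 6 differed, 4 of 25 targets and 2 of 16 bZIP partners with 0 in the other lists, beside the same 11.4% of all gene names. Those larger in Schmid were Fgf21 by log2 5.82, Car6 by 3.22, Psat1 by 2.85, Ero1l by 2.46 and Fosb by 1.65 (adjusted p = 0.033), and for Nfe2l1 the log2 difference was -1.22 (adjusted p = 0.0049), with the larger increase in Cog. Fosb passed in neither mutant alone, with log2 0.52 in Schmid and -1.13 in Cog. Groups of 3 arrays were too small for a check of single outlying samples.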

How the results depend on the processing

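The counts of regulators that were higher in Schmid (7) and in Cog (5) stayed within 1.5 times under every alternative but one: where all probes of a gene had to pass they were 4 and 3. The members left have a single probe each (Chop, Atf3 and Gadd34 in both mutants, Perk in Schmid), so that rule changed nothing for them. Trib3, Cebpb and Cebpg, each with more than 1 probe, did not pass it. Under every other alternative the calls of Chop, Atf3, Trib3 and Gadd34 in both mutants and of Cebpb and Cebpg in Schmid held. In Cog the count of higher pathway genes was 10, and 6 with the processed signal at the 75th percentile, with normexp at a common 75th percentile or where all probes had to pass. For the difference of effects, pathway genes went from 6 to 11 with array weights, to 10 with slide as a random block, and from 4 to 10 on leaving out single arrays. Members with a different effect (1) were 0 where all probes had to pass and 0 to 2 on leaving out arrays. Between the wildtype groups 1 member in place of 0, Cebpg, was called with array weights, and 0 to 1 on leaving out arrays (log2 -1.59, adjusted p = 0.013, without wildtype array 1 of the Schmid background).

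Signs turned only for values that did not pass. In Schmid, Atf4 was 0.11 (processed signal, 75th percentile), 0.01 (processed signal, quantile) and 0.03 (normexp, 75th percentile), and -0.42 to 0.04 on leaving out arrays. In Cog it was -0.38 to 0.06 on leaving out arrays. For the difference of effects, Atf4 was 0.53, 0.26 and 0.34 under those scalings, 0.26 with the row trend removed and -0.28 to 0.19 on leaving out arrays. Atf5 was -0.24 and -0.28 with the processed signal, -0.11 with array weights, -0.13 with the row trend removed and -0.21 to 0.35 on leaving out arrays. Cebpb was -0.05 with array weights and -0.10 to 0.24 on leaving out arrays. Between wildtypes, Atf5 was 0.03 (processed signal, 75th percentile), Myd116 was -0.01 (normexp, 75th percentile) and -0.09 to 0.13 on leaving out arrays, and Eif2ak3 was -1.33 to 0.15 on leaving out arrays. The causes were not tested.

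With the replicate number within each background as a block (replicate block) 7 members were higher in Schmid, 5 in Cog and 1 differed between effects, and no member's call changed; pathway genes were 22, 10 and 6. With a block common to all groups the member counts were 7, 5, 1 and, between wildtypes, 0. Over all probes, 2 of the 3 Schmid mice correlated best with the wildtype mouse of their own number, and 1 of the 3 Cog mice did. The block within each background could give no value between wildtypes. With the processed signal at the 75th percentile the median of all probes moved to log2 -0.40 in Schmid and 0.43 in Cog, from -0.06 and 0. The consensus correlation of arrays of a slide was -0.122.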
